A study of Homo sapiens with 2 samples.

Results

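The short arm of chromosome 6 (6p) held 3442 of the 114944 DNase I hotspots that the authors called in 2 cell lines, Saos-2 and U2OS. A hotspot is a stretch of DNA where the enzyme DNase I cut intact nuclei often, which marks chromatin not closed by nucleosomes. Members were all hotspots on chromosome 6 that ended before 59.8 Mb on the hg38 genome, in whichever line they were called. Saos-2 had 1765 of its 51556 hotspots there (3.42%), and U2OS had 1677 of its 63388 (2.65%). Both lines are established cultures grown from human osteosarcoma. Neither is given a treatment or genetic change in the labels. Digestion of nuclei with a limited quantity of the enzyme lasted 3 min at 37 °C. Each line was 1 library, so every difference below compares these libraries, with no replicate error and no test between the lines. Intervals reflect counting error alone, and hotspots that lie close together do not count as independent.

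Accessible sites lie at promoters, which are much the same in many cell types, and at enhancers and insulators, which differ more between cells. The arm 6p carries the major histocompatibility complex, the largest cluster of replication-dependent histone genes, and RUNX2, the master transcription factor of bone-forming osteoblasts. It is an arm often gained in osteosarcoma. The hotspot lists hold neither read depth nor DNA copy number, so the part of either in any difference was not tested.

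Genes that bear on the labels were looked at first. RUNX2, SP7, COL1A1, COL1A2 and SPARC, which mark the osteoblast lineage, had hotspots within 10 kb in both lines. So did 71.0% of all protein-coding genes, so this is a weak check of the labels. Each hotspot also has a significance, which is the authors' −log10 value and was capped at 100 in the lists. It ranks hotspots within a list, and its level also depends on depth. On 6p its median was 4.27 in Saos-2 and 4.55 in U2OS. The median width of a 6p hotspot was 251 bp in the Saos-2 list and 249 bp in that of U2OS.

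Promoter sequences are shown for sites that illustrate the 3 classes found on the arm, which are open in both lines, in Saos-2 alone and in U2OS alone. Each is the 250 bases before a transcription start, 5′ to 3′ in the direction of the gene, from RefSeq on GRCh38.p14, whose main chromosomes are those of hg38. Capitals mark matches, on either strand, to 12 of the 13 motifs that were searched. The exception was the E-box, which is left in lower case because it is short and common. The letters of every motif are given with the promoter results. The first pair were the promoters under the shared sites with the highest significance. NEU1, which encodes the lysosomal enzyme neuraminidase, lies on the minus strand, and its sequence is chr6:31862822-31863071. ZNF451, which encodes a zinc finger SUMO ligase, lies on the plus strand, and its sequence is chr6:57089938-57090187.
NEU1: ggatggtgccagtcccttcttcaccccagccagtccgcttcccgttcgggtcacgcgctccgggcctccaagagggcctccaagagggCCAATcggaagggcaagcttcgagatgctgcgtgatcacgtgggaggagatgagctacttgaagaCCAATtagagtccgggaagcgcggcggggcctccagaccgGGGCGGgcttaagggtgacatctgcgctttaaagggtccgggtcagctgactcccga
ZNF451: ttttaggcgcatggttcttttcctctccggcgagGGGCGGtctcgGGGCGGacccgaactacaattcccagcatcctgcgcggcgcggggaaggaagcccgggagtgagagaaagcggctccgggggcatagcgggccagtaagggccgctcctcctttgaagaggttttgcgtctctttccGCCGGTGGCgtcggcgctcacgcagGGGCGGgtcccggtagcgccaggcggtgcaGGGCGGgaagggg

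Promoters open in Saos-2 alone are shown for the CAP2, BTN3A3 and H2BC8 genes. CAP2, an actin-regulating protein gene on the plus strand, has chr6:17393345-17393594. BTN3A3, a butyrophilin gene on the plus strand, has chr6:26440254-26440503. The sequence of H2BC8, an H2B histone gene on the minus strand, is chr6:26216689-26216938, and it was added for the histone results. CAP2 and BTN3A3 had the highest significance among promoters whose hotspot met no hotspot of U2OS anywhere along its length, at 18.4 and 14.8. The hotspot over H2BC8 was at 9.08 and covered all 300 bases of its promoter window. The capitals near the 3′ end of H2BC8 include an octamer.
CAP2: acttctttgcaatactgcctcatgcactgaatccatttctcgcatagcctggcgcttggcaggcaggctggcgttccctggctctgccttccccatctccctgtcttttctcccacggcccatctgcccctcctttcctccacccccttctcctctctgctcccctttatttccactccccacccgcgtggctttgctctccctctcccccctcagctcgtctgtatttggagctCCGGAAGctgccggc
BTN3A3: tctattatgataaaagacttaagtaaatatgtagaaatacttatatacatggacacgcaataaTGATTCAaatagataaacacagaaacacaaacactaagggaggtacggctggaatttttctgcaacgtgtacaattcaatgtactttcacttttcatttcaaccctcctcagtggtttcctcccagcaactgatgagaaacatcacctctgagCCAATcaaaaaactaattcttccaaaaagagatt
H2BC8: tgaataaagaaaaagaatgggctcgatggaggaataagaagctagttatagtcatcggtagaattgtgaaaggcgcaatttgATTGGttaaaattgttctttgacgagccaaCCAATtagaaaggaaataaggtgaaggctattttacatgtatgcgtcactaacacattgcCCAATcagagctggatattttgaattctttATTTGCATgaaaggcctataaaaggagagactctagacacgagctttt

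Promoters open in U2OS alone are shown for ZSCAN23 and OARD1. ZSCAN23, a zinc finger gene on the minus strand, has chr6:28443492-28443741 and a hotspot at 15.03. OARD1, which encodes an ADP-ribose hydrolase and also lies on the minus strand, has chr6:41097788-41098037 and a hotspot at 9.08. These were chosen by the same rule. The sequence of OARD1 belongs to an alternative start, and another start of the same gene lay under a hotspot shared by both lines.
ZSCAN23: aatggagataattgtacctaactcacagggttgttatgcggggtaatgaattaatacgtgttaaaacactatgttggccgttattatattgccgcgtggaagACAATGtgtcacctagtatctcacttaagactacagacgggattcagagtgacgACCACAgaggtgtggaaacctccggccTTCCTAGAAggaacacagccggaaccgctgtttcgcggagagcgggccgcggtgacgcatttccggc
OARD1: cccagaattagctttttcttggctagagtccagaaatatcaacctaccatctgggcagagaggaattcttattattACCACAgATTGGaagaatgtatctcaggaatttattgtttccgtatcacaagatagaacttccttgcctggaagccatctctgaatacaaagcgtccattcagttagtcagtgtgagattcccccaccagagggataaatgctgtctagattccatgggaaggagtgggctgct

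Relative to the rest of the genome, the arm held fewer U2OS hotspots for its Saos-2 hotspots. U2OS had 1.23-fold as many hotspots as Saos-2 genome-wide and 0.95-fold as many on 6p. Centred on the genome, by subtraction of the genome-wide value of 0.30, log2(U2OS/Saos-2) for the counts was -0.37 on 6p, with a 95% counting interval from -0.47 to -0.28. This was not particular to the short arm. The long arm of the same chromosome, with 1913 Saos-2 and 1885 U2OS hotspots, gave -0.32, with an interval from -0.41 to -0.23. Set against the long arm in place of the genome, 6p stood at -0.05. In covered bases the arm held 494.3 kb in Saos-2 and 473.9 kb in U2OS.

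The imbalance was uneven along the arm. The arm was cut into 30 windows of 2 Mb from its tip, and hotspots were counted by their middle. The 29 windows with at least 20 hotspots in all held 9 to 122 Saos-2 hotspots, with a median of 64, and 23 to 128 U2OS hotspots, with a median of 54. In 10 windows (34.5%) the centred ratio favoured Saos-2 by more than 1.5-fold, where 12.9% of windows over all chromosomes did. In 1 window (3.45%) it favoured U2OS by more than 1.5-fold, against 20% over all chromosomes. The median window of the arm stood at -0.37 and the median of all 1360 windows at 0.06. At 2-fold only 1 window remained past the limit in each direction.

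**Figure D1:**
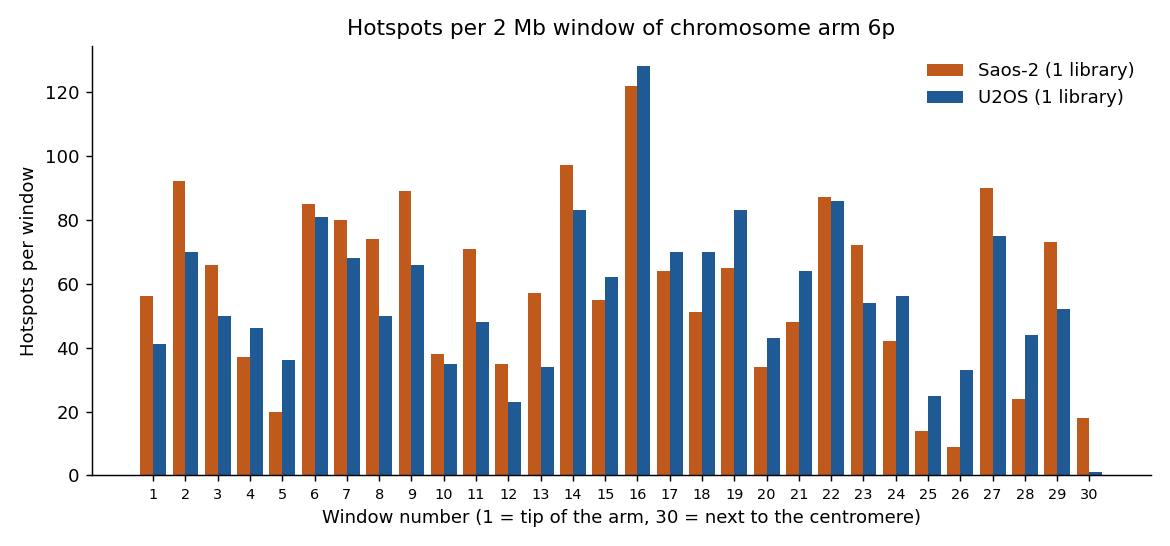
Hotspots per 2 Mb window of 6p, by window number from the tip of the arm, with 1 bar for the single library of each line. Window 16 is the fullest, with 122 Saos-2 and 128 U2OS hotspots, and window 30 has 18 and 1.

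The windows that favoured Saos-2 lay mostly toward the tip. The first 14 windows, 0 to 28 Mb, held 897 Saos-2 and 731 U2OS hotspots, which gave a centred log2 ratio of -0.59 (interval -0.74 to -0.45). Of these 14 windows 12 were below 0, and 8 passed 1.5-fold toward Saos-2. The next 7 windows, 28 to 42 Mb, span the histocompatibility complex and the genes beyond it. They held 439 and 520 hotspots and stood at -0.05 (-0.24 to 0.13), with no window past 1.5-fold in either direction. The borders of these blocks were chosen after the windows were seen. With the first border moved by 1 window either way, the tip block stood at -0.60 and -0.56.

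The significance of shared sites differed between these 2 blocks, and over the rest of the arm it went with the counts in some windows only. Over the genome outside 6p, the median significance of shared hotspots was 5.30 for Saos-2 and 7.20 for U2OS. From 28 to 42 Mb the medians were 5.44 and 7.59, with U2OS above Saos-2. From 0 to 28 Mb they were 6.26 and 5.91, with Saos-2 above U2OS. Other stretches did not follow. Windows 22 and 23, which leaned to Saos-2 at -0.48 (-0.82 to -0.15), had medians of 5.70 in Saos-2 and 7.81 in U2OS. Window 26, which leaned to U2OS, had 7.35 and 6.53, from only 5 shared hotspots in each line. The windows next toward U2OS, 28, 5 and 25, did follow. Their medians were 4.05 and 7.35, 4.76 and 6.06, and 3.79 and 6.14. Read depth and copy number in these blocks were not measured, and their part in the result was not tested. The tip block was alike at gene ends, meaning up to 1 kb from the start or end of a coding gene, and away from them. Its centred ratio was -0.65 (-1.03 to -0.27) over 142 and 101 gene-end hotspots and -0.59 (-0.75 to -0.44) over 755 and 630 others.

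**Figure D2:**
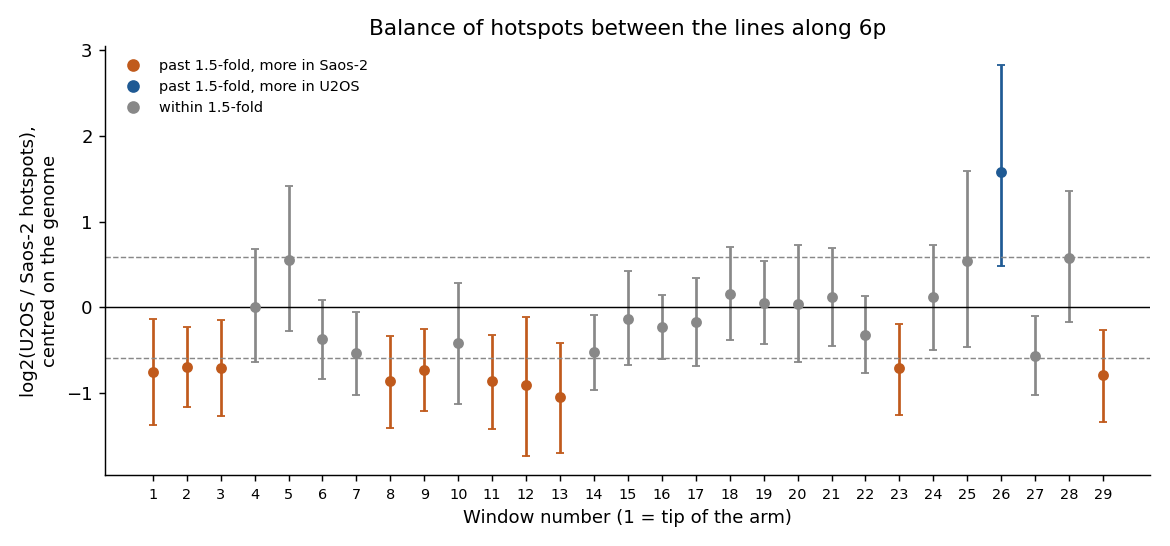
Centred log2 ratio of U2OS to Saos-2 hotspots in the 29 windows with a ratio, by window number from the tip. Bars are 95% counting intervals and dashed lines mark 1.5-fold. The 10 windows 1, 2, 3, 8, 9, 11, 12, 13, 23 and 29 lie below the lower line, and window 26 alone lies above the upper one, at 1.58.

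Window 13, 24 to 26 Mb, had the strongest lean to Saos-2, with 57 Saos-2 and 34 U2OS hotspots and a centred ratio of -1.04 (-1.70 to -0.41). Its largest difference by gene was at CARMIL1, which encodes a leucine-rich repeat regulator of actin capping. CARMIL1 (gene 55604, chr6:25279374-25620530) and 10 kb on either side held 11 hotspots covering 3107 bp in Saos-2 and 6 covering 1244 bp in U2OS. The U2OS hotspots were almost all shared: 5 of the 6 met a Saos-2 hotspot, while 6 of the 11 in Saos-2 met none. TDP2, a DNA repair phosphodiesterase gene, followed with 981 bp in Saos-2 against 505 bp in U2OS, and TRIM38, an innate immunity regulator, with 1285 and 904 bp.

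Window 12, 22 to 24 Mb, held 35 and 23 hotspots (-0.90, -1.73 to -0.11) and only 2 protein-coding genes. HDGFL1 had 2 Saos-2 hotspots covering 320 bp and none in U2OS. PRL, the pituitary hormone prolactin, had 1 Saos-2 hotspot of 55 bp at a significance of 1.5 and none in U2OS. Most hotspots of this window therefore lay more than 10 kb from any coding gene.

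Window 8, 14 to 16 Mb, held 74 and 50 hotspots (-0.86, -1.41 to -0.33). JARID2, a partner of the Polycomb repressive complex, accounted for the largest difference in it. JARID2 (gene 3720, chr6:15246069-15522042) had 21 Saos-2 hotspots covering 5965 bp and 13 U2OS hotspots covering 3007 bp. Both lines had their top JARID2 site at the same place, at 31.4 in Saos-2 and 24.9 in U2OS. The neighbour DTNBP1, a subunit gene of a lysosome-related organelle complex, had 932 and 309 bp. CD83, a surface protein gene of activated dendritic cells, had 360 and 163 bp.

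Window 26, 50 to 52 Mb, was the window past 1.5-fold toward U2OS, with 9 Saos-2 and 33 U2OS hotspots (1.58, 0.48 to 2.82). Of the 33 in U2OS, 28 met no Saos-2 hotspot. PKHD1, the fibrocystin gene of the kidney and bile duct cilium (gene 5314, chr6:51615299-52087615), had 6 hotspots in U2OS covering 1503 bp and none in Saos-2. The U2OS sites of PKHD1 ran from 3.18 to 17.9 in significance. TFAP2B, a transcription factor of neural crest and kidney, had 3 U2OS hotspots covering 939 bp and 1 Saos-2 hotspot of 159 bp. DEFB110, a beta-defensin gene, had 1 U2OS hotspot of 216 bp and none in Saos-2.

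Windows 28 and 5 were next toward U2OS, at 0.58 (-0.17 to 1.36) and 0.55 (-0.28 to 1.42), and both intervals held 0. BMP5, a bone morphogenetic protein ligand, gave the largest difference in window 28. BMP5 (gene 653, chr6:55753653-55875590) had 7 U2OS hotspots covering 2266 bp and 1 Saos-2 hotspot of 348 bp. The site they had in common, at chr6:55868779-55869366 in U2OS, was at 22.2 in U2OS and 3.32 in Saos-2. In the same window HCRTR2, an orexin receptor gene, had 3 U2OS hotspots and none in Saos-2. TINAG, a basement membrane protein gene of kidney tubules, had 861 bp in U2OS against 388 bp in Saos-2. In window 5 the only gene with more bases in U2OS was SLC35B3, a sulfate donor transporter gene. Its single shared hotspot was 724 bp wide in U2OS and 346 bp wide in Saos-2. The other genes of that window went the other way, with 1624 bp in Saos-2 against 1091 bp in U2OS at EEF1E1 and 629 against 300 bp at BLOC1S5.

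More than 50% of the arm's hotspots were shared, where shared means an overlap of at least 1 bp with a hotspot of the other line. In Saos-2 949 of 1765 were shared (53.8%, Wilson 95% interval 51.4 to 56.1), and 816 were not (46.2%). In U2OS 942 of 1677 were shared (56.2%, 53.8 to 58.5), and 735 were not (43.8%). Over the whole genome 41.9% of Saos-2 and 53.1% of U2OS hotspots had no overlap. On 6p the Saos-2 share without overlap was thus above its background, and the U2OS share below it. On the long arm of chromosome 6 the overlapped shares were 49.0% and 49.9%.

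Shared sites were wider and of higher significance. In Saos-2 the median width was 305 bp for shared and 198 bp for unshared hotspots, and in U2OS 300 and 199 bp. The median significance was 5.98 against 3.16 in Saos-2 and 6.38 against 3.18 in U2OS. With each list's 6p hotspots ranked by significance and split into 4 equal groups, the share overlapped went from 35.1% in the lowest to 78.7% in the highest group of Saos-2. In U2OS it went from 33.6% to 82.1%. The unshared sites lay mostly among the weaker calls of each list.

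**Figure D3:**
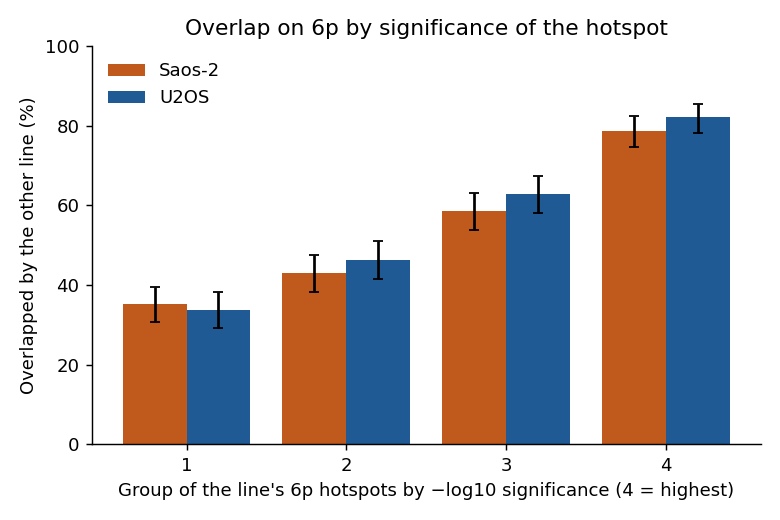
Share of 6p hotspots overlapped by the other line, in 4 equal groups of the line's own 6p hotspots ranked by −log10 significance (1 lowest, 4 highest). Bars are shares with Wilson 95% intervals, and in both lines the share is highest in group 4, at 78.7% in Saos-2 and 82.1% in U2OS.

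Shared sites were also closer to transcription starts. Of the shared hotspots, 27.4% in Saos-2 and 26.8% in U2OS had their middle within 1 kb of a start, and of the unshared 9.19% and 10.5%. The median distance was 24.1 kb for shared and 49.5 kb for unshared sites in Saos-2, and 24.9 and 41.1 kb in U2OS. The table of starts covered 536 of the arm's 603 protein-coding genes, so some distances are too long. At gene ends 78.0% of the 373 Saos-2 hotspots and 76.8% of the 362 U2OS hotspots were shared. Elsewhere the shares were 47.3% and 50.5%.

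The shared sites of highest significance in both lines were led by promoters. The site at the NEU1 start, chr6:31862714-31863261 in Saos-2, was at 51.7 in Saos-2 and at the cap of 100 in U2OS. At the ZNF451 start the values were 40.4 and 66.4. At the start of PPP1R11, a protein phosphatase inhibitor gene, chr6:30066585-30067315, they were 69.0 and 30.7. The other two were away from genes. The site at chr6:52352316-52352964, 9.19 kb from PAQR8, was at 38.9 and 57.6, and that at chr6:14001492-14002070, 21.2 kb from RNF182, was at 33.3 and 37.4. U2OS had the higher value at 4 of these 5 sites, and Saos-2 at PPP1R11.

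The strongest unshared Saos-2 sites were all in the tip block. The highest, at 35.9, was chr6:25302685-25303157 inside CARMIL1, and the nearest U2OS hotspot was 9.69 kb away. The site chr6:971695-972863, at 30.2, was 1169 bp wide, which made it the widest Saos-2 hotspot of the arm. It lay 279 kb from EXOC2, the nearest protein-coding gene. The site chr6:15021687-15022760, at 30 and 1074 bp wide, lay 223 kb from JARID2. The site chr6:5727276-5727665, at 27, lay inside FARS2, a mitochondrial tRNA synthetase gene. The last, chr6:18260655-18261081, at 25.5, lay inside DEK, a chromatin protein gene, 3.66 kb from its start. The annotation used gives gene spans without exons, so whether these sites are exonic or intronic is not given here.

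The strongest unshared U2OS sites lay between 28 and 42 Mb. PPARD, a lipid-sensing nuclear receptor gene, held 2 of the 5, chr6:35425212-35425688 at 29.5 and chr6:35391234-35391635 at 23. DAAM2, a formin of Wnt signalling, held chr6:39887543-39888126 at 28.5, with a Saos-2 hotspot 2.39 kb away. The overlapping genes TMEM217 and TMEM217B held chr6:37239935-37240559 at 26.3. The site chr6:28542513-28543203, at 22.8, lay 7.56 kb from GPX5, an epididymal glutathione peroxidase gene, and 46.2 kb from the nearest Saos-2 hotspot.

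Hotspots of 1 line also came in runs, which are hotspots that follow each other in order of their middles with no middle of the other line between them. A shared hotspot has a middle of the other line close by, so runs hold few shared hotspots by definition. The 3 longest runs per line are given, and none of them held more than 1 shared hotspot. The longest run of U2OS had 21 hotspots, 20 of them unshared, over chr6:49623177-50816420. That span holds 10 protein-coding genes, among them the sperm and secretory genes CRISP1, CRISP2 and CRISP3, the defensin genes DEFB110, DEFB112, DEFB113 and DEFB114, RHAG and TFAP2D. Its significance ran from 1.5 to 18.6, with a median of 4.94. The next U2OS run had 15 hotspots over chr6:51398267-52119072, around PKHD1. The third had 9, of which 8 were unshared, over chr6:10202188-10403976, which ends in TFAP2A, a transcription factor of neural crest and skin.

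In Saos-2 the longest such series held 17 hotspots and lay against the centromere, at chr6:58597866-59784033, beyond the last protein-coding gene of the arm. The last window, 58 to 59.8 Mb, held 18 Saos-2 hotspots and 1 U2OS hotspot, none shared, and was too sparse for a ratio. The 18 were narrow, 72 to 253 bp, with a median significance of 2.60. Their highest values were 13.8, 13.01 and 12.3. Mapping is difficult next to centromeric repeats, and the filter on mapping used by the authors is not given in the sources used here. Its part in this run was not tested. Without the last window 6p stood at -0.36 in place of -0.37.

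The second Saos-2 run had 13 hotspots over chr6:57317406-57673636. It began inside PRIM2, which encodes the large subunit of DNA primase, and ended beyond that gene. PRIM2 (gene 5558, chr6:57221540-57646850) had the largest difference of any listed gene, with 20 Saos-2 hotspots covering 5570 bp and 5 U2OS hotspots covering 1663 bp. All 5 in U2OS were shared, and 15 of the 20 in Saos-2 were not. Around the ends of the gene alone the difference, U2OS minus Saos-2, was -140 bp. PRIM2 has near-identical duplicated sequence in the genome, and how reads from such copies were placed is not given in the sources used here, so this gene is uncertain. Without the PRIM2 span the arm stood at -0.36, and 9 windows in place of 10 passed 1.5-fold toward Saos-2. The third Saos-2 run had 12 hotspots in 92.8 kb at chr6:43949172-44041987, where no protein-coding gene lies.

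By gene, the arm leaned less clearly. Of its 603 protein-coding genes, 446 had hotspots in or within 10 kb in both lines, and 60 in neither. Hotspots in Saos-2 alone were found at 50 (8.29%, against 4.21% of all genes), and in U2OS alone at 47 (7.79%, against 10.9%). Of those 50, 22 were the histone genes described below. More covered bases in Saos-2 were found at 254 (42.1%, against 33.0%), and more in U2OS at 289 (47.9%, against 53.1%). The median difference, U2OS minus Saos-2, was 0 bp on 6p and 32 bp over all genes. Widened to 50 kb, 8 genes had hotspots in Saos-2 alone and 36 in U2OS alone. The shares over all genes at 50 kb were not computed, so these counts have no background to be read against. Genes that adjoin share hotspots, so these counts are not of independent sites.

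The genes with most covered bases in Saos-2 and none in U2OS were led by a neighbouring pair. BPHL, a hydrolase gene (chr6:3118376-3153578), had 4 hotspots covering 1488 bp. TUBB2A, a beta-tubulin gene next to it, had 3 covering 846 bp, some of them the same sites. Then came GSTA2, a glutathione transferase gene, with 618 bp, PPP1R3G, a glycogen regulator, with 618 bp, and H2AC17, an H2A histone gene, with 594 bp. TUBB2A and GSTA2, like BTN3A3 above, have close paralogues beside them and are uncertain for that reason. In U2OS the 5 were PKHD1 with 1503 bp, GPX5 with 888 bp, TSBP1 with 855 bp, the potassium channel gene KCNK5 with 690 bp and HCRTR2 with 657 bp.

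**Figure D4:**
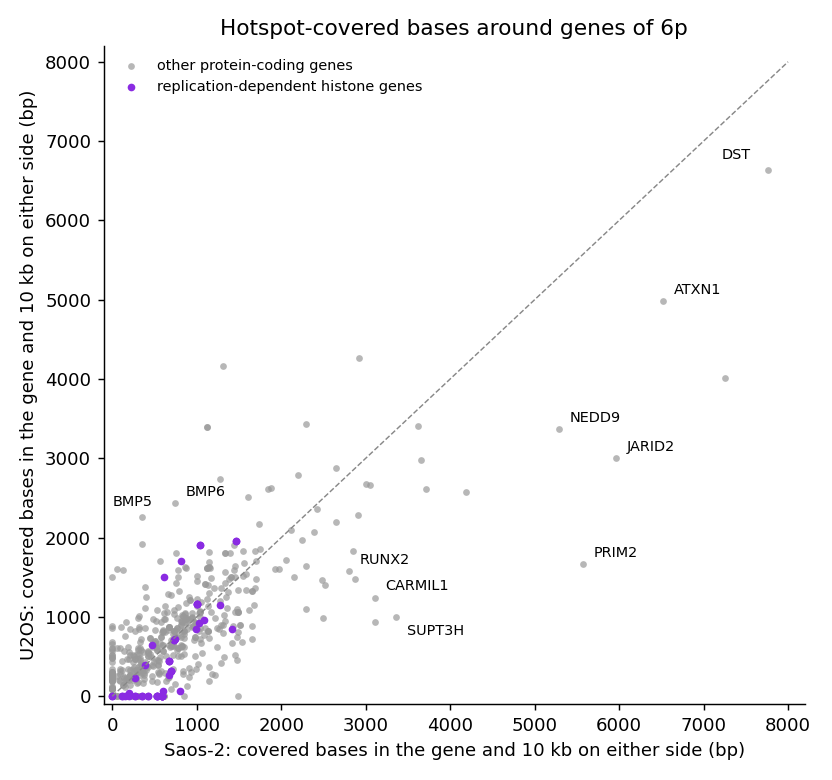
Bases covered by hotspots in each of the 603 protein-coding genes of 6p and 10 kb on either side, in Saos-2 (horizontal) and U2OS (vertical), with equality as a dashed line. PRIM2 (5570 and 1663 bp) and JARID2 (5965 and 3007 bp) lie well below the line, BMP5 (348 and 2266 bp) above it, and many histone genes lie on the horizontal axis with no U2OS bases.

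The 55 replication-dependent histone genes, which supply the histones of newly copied DNA, leaned to Saos-2. Hotspots were found in both lines at 31 of them, in Saos-2 alone at 22 (40.0%, against 8.29% of the arm's genes and 4.21% of all), in U2OS alone at 0 and in neither at 2. The arm's 50 genes with hotspots in Saos-2 alone include these 22. More bases were covered in Saos-2 at 41 (74.5%, against 42.1% of the arm's genes and 33.0% of all) and in U2OS at 12 (21.8%, against 47.9% and 53.1%). The median difference was -228 bp, where the median over the arm was 0 bp. The genes are packed so tightly that they share sites: only 36 distinct Saos-2 hotspots and 25 distinct U2OS hotspots lay near them, of which 20 in each line were shared. By hotspot, 55.6% were thus shared in Saos-2, near the 53.8% of the whole arm, and 80.0% in U2OS, against 56.2%. At 50 kb on either side 3 of the genes had hotspots in Saos-2 alone, with no share over all genes computed at that distance. In the top 50% of each list 1 gene had them in U2OS alone. Reads of these near-identical genes may have been placed at more than 1 copy or dropped, and the part of this in the result was not tested.

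The upper cluster, 21 genes over chr6:27132316-27893891, differed more by gene than the lower one. In it 12 genes had hotspots in Saos-2 alone and 8 in both lines. The median gene had 594 covered bases in Saos-2 and 0 in U2OS. Its whole span held 32 hotspots in Saos-2 and 34 in U2OS. These are raw counts not centred on the genome, where U2OS had 1.23-fold as many hotspots as Saos-2. H2BC13, H2AC13, H3C10, H2AC14 and H2BC14 lay around the same 2 Saos-2 hotspots, which covered 590 bp. H2BC11 and H2AC11, at the start of this cluster, went the other way, with 1909 bp in U2OS against 1042 bp in Saos-2. In the lower cluster, 34 genes over chr6:25726063-26285534, 23 had hotspots in both lines and 10 in Saos-2 alone, and its span held 28 Saos-2 and 23 U2OS hotspots. H1-2 had 805 bp in Saos-2 against 70 bp in U2OS, while H1-4 had 616 and 1502 bp and H2BC5 had 813 and 1711 bp.

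**Figure D5:**
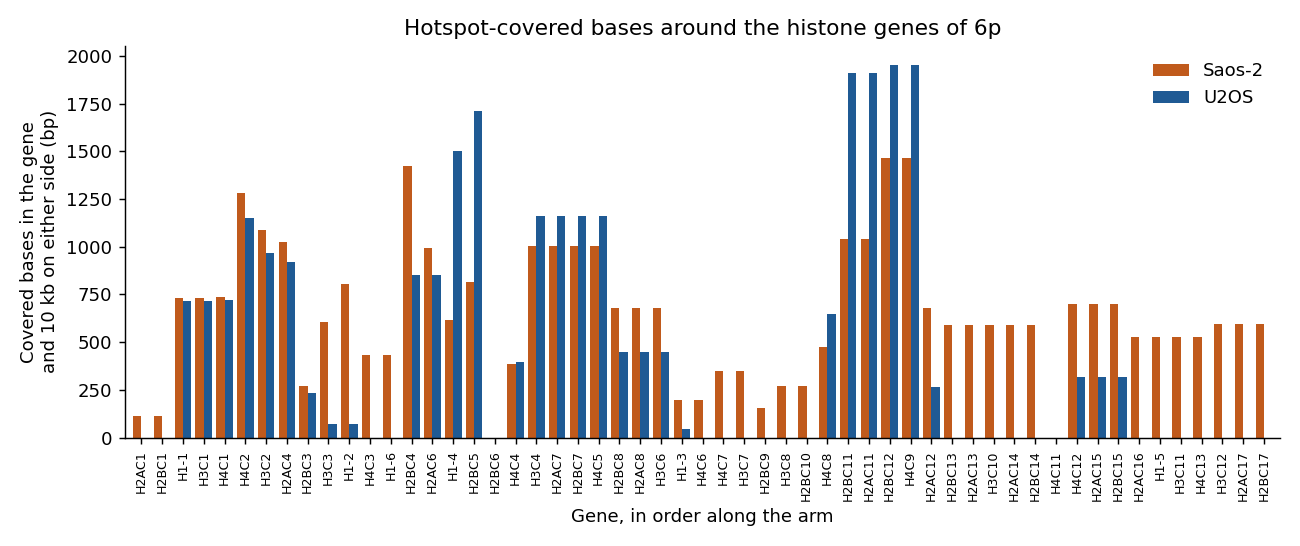
Bases covered by hotspots in each of the 55 histone genes of 6p and 10 kb on either side, in gene order along the arm, with 1 bar per line. Stretches with Saos-2 bars alone include H2BC13 to H2BC14 (590 bp) and H3C12 to H2BC17 (594 bp), and U2OS bars are the taller ones at H1-4, H2BC5 and H2BC11 to H4C9.

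The 22 genes of 6p that are discussed for gain in osteosarcoma all had hotspots in both lines, where 74.0% of the arm's genes and 71.0% of all did. Saos-2 covered more bases at 12 (54.5%, against 42.1% of the arm's genes and 33.0% of all) and U2OS at 10 (45.5%, against 47.9% and 53.1%), and the median difference was -33 bp. SUPT3H, a subunit gene of a histone acetyltransferase complex, had 12 Saos-2 hotspots covering 3356 bp and 6 U2OS hotspots covering 996 bp. RUNX2, which overlaps it, had 10 covering 2799 bp and 6 covering 1575 bp. DEK had 1320 and 490 bp, and SOX4, a progenitor transcription factor, had 909 and 351 bp. In the top 50% of each list the difference, U2OS minus Saos-2, was -2 bp at SOX4 and -486 bp at RUNX2, and around the gene ends alone it was -195 bp at SUPT3H. On the U2OS side were UBR2, a ubiquitin ligase gene, with 565 bp in Saos-2 against 1704 bp in U2OS, and CCND3, the cyclin D3 gene, with 1606 and 2518 bp. E2F3 (989 and 919 bp), VEGFA (691 and 638 bp), PTK7 (2112 and 2099 bp) and XPO5 (814 and 748 bp) were close to equal.

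Of 24 developmental transcription factor and chromatin genes, 22 had hotspots in both lines, where 74.0% of the arm's genes did. IRF4, a lymphocyte and pigment cell factor, had them in Saos-2 alone, with 412 bp, and TFAP2D had none within 10 kb in either. Saos-2 covered more bases at 14 (58.3%, against 42.1% of the arm's genes) and U2OS at 9 (37.5%, against 47.9%), with a median difference of -89 bp. Besides JARID2, Saos-2 exceeded U2OS at ATXN1 (6519 and 4979 bp) and HIVEP1 (2494 and 982 bp). BRD2, a bromodomain reader of acetylated histones, had 1281 bp in Saos-2 against 2737 bp in U2OS. The forkhead genes FOXQ1, FOXF2 and FOXC1 each had 1 hotspot in each line.

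Genes of antigen presentation had more bases in U2OS more often than the arm's genes did, in lists of 13 and 11 genes. Of 13 class I and peptide loading genes, 12 had hotspots in both lines, where 74.0% of the arm's genes did. U2OS covered more bases at 8 (61.5%, against 47.9% of the arm's genes and 53.1% of all). Saos-2 did at 4 (30.8%, against 42.1% and 33.0%), and the median difference was 180 bp. The peptide transporter genes TAP1 (1144 bp in Saos-2 against 1815 bp in U2OS) and TAP2 (392 and 1114 bp) and the stress ligand gene MICA (758 and 1427 bp) were among the 8. HLA-B had 550 and 293 bp, on the Saos-2 side. Of 11 class II genes, which are normally used by antigen-presenting cells, 3 had hotspots in both lines and 4 in neither, among them HLA-DRA and HLA-DRB1. Hotspots in U2OS alone were at 3 (27.3%, against 10.9% of all genes) and in Saos-2 alone at 1 (9.09%, against 4.21%). More bases were covered in U2OS at 6 (54.5%, against 47.9% of the arm's genes and 53.1% of all). Saos-2 covered more at 1 (9.09%, against 42.1% and 33.0%). Neighbours in both lists share sites, so these genes are not independent. In U2OS, HLA-DQA1 and HLA-DQB1 both had 199 bp, HLA-DMB and HLA-DMA 201 bp, and HLA-DPA1 and HLA-DPB1 145 bp. The last pair had 125 bp in Saos-2. PSMB8 and TAP1 both had 1144 bp in Saos-2. The HLA genes are highly polymorphic and similar to each other, so their values are uncertain.

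Of 22 matrix, adhesion and signalling genes, 21 had hotspots in both lines, where 74.0% of the arm's genes did. U2OS covered more bases at 12 (54.5%, against 47.9% of the arm's genes) and Saos-2 at 10 (45.5%, against 42.1%), with a median difference of 8.5 bp. BMP6, like BMP5 a ligand of bone formation, had 9 U2OS hotspots covering 2433 bp and 2 Saos-2 hotspots covering 741 bp. Both Saos-2 hotspots of BMP6 were shared, and 7 of the 9 in U2OS were not. FKBP5, a glucocorticoid-induced co-chaperone gene, had 3437 bp in U2OS against 2297 bp in Saos-2. NEDD9, a scaffold protein of cell adhesion, had 5283 bp in Saos-2 against 3373 bp in U2OS. DST, a large cytoskeletal linker gene, had 26 and 27 hotspots covering 7765 and 6636 bp.

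Of 23 genes that mark other cell types, 9 had hotspots in both lines, 5 in Saos-2 alone, 5 in U2OS alone and 4 in neither. Each 5 is 21.7% of the list, where 4.21% of all genes had hotspots in Saos-2 alone and 10.9% in U2OS alone. Their median difference was 0 bp. TREM1, TREM2, CRISP3 and GSTA1 were at 0 in both. The lymphoid genes TNF, LTB and NCR3 lay around the same Saos-2 hotspot, which was 285 bp wide. In U2OS the stomach gene PGC had 604 bp and the retina gene PRPH2 871 bp, against 0 and 103 bp in Saos-2. PGC and PRPH2 lie within 10 kb of TFEB and UBR2, so their values can include sites of those neighbours. Of the other retina genes listed, TULP1 leaned the opposite way, with 130 bp covered in Saos-2 alone. GUCA1A differed little, with 206 bp for Saos-2 against 271 bp for U2OS. Across the list, coverage was higher in Saos-2 at 9 genes and in U2OS at 10.

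Promoters were examined as the 300 bases from 250 before to 50 after a RefSeq start. Of 726 promoters on the arm, 273 (37.6%) were touched by hotspots in both lines and 361 in neither. Those touched in Saos-2 alone numbered 41 (5.65%, against 4.18% of all promoters), and in U2OS alone 51 (7.02%, against 8.12%). At 38 of the 41 and 45 of the 51, the hotspot met no hotspot of the other line at any point. Over all promoters this held for 856 of 927 in Saos-2 alone and 1673 of 1802 in U2OS alone, so it was common throughout the genome. Histone genes made up 12 of the 41 and 0 of the 51. The remaining Saos-2 promoters included BPHL, TUBB2A, BTN3A2, HLA-B and CDKN1A at an alternative start, and those of U2OS included BMP5, KCNK5, ENPP5 and EDN1.

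The promoters were searched on both strands for 13 motifs, each counted on its own even where matches overlap. The letters were TGANTCA for AP-1, TGACGTCA for the cyclic AMP response element, TGTGGT for RUNX, GGAATG for TEAD, CCGGAAG for ETS, GGGCGG for the GC box, CCAAT for the CCAAT box, CANNTG for the E-box, ATGCAAAT for the POU octamer, ACAATG for SOX, GCCNNNGGC for TFAP2 and TTCNNNGAA for STAT, and CTCF was searched by its consensus. A match is a description and not a bound site. The GC box was in 66.3% of the 6p promoters open in both lines, 46.3% of those open in Saos-2 alone, 54.9% of those open in U2OS alone and 40.7% of those open in neither. The share was 56.3% over all 22183 promoters. ETS letters were in 20.5% of promoters open in both lines and 4.71% of those open in neither, against 12.8% of all. In order of the list, all promoters held AP-1 at 6.15%, the cyclic AMP element at 2.26%, RUNX at 11.3%, TEAD at 12.2%, the CCAAT box at 34.7%, the E-box at 65.1%, SOX at 8.18%, TFAP2 at 27.3%, STAT at 6.79% and CTCF at 1.90%.

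The octamer, a binding site of POU factors that is known from H2B promoters, set the histone promoters apart from the rest of the arm. It was in 23 of 54 histone promoters (42.6%), in 16 of 672 other promoters of 6p (2.38%) and in 1.65% of all promoters. In the H2BC8 sequence above it reads on the opposite strand, as the last capitals of the line. Among histone promoters it was in 7 of the 12 open in Saos-2 alone, 10 of the 20 open in both lines and 6 of the 22 open in neither. Some H2A and H2B genes lie head to head with overlapping windows, such as H2BC8 and H2AC8, so these promoters are not independent. Of the 41 promoters open in Saos-2 alone, 7 held the octamer, and those 7 were all histone promoters. Among promoters open in U2OS alone, RUNX letters were in 12 of 51 (23.5%, 14 to 36.8) and TEAD letters in 14 of 51 (27.5%, 17.1 to 40.9). The shares were 12.3% and 15.3% over the arm. Promoters open in U2OS alone over the whole genome showed no such difference. Of 1802, 9.32% held RUNX letters and 12.7% TEAD letters, where all promoters held them at 11.3% and 12.2%. Several of the 51 are overlapping windows of 1 gene, such as EDN1 and PFDN6, so they are not independent.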

How the data were processed

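Each line was represented by 1 DNase-seq library, and the authors deposited 1 list of hotspots per library, called separately at a false discovery rate of 0.05 per the file names. The submitters' processing notes name Trimmomatic 0.38, BWA 0.7.15 and hg38. The hotspot caller and the filters on mapping and duplicates are not given in the sources used here. The deposited −log10 value of each hotspot has no header and was read as its significance, since its lowest value was 1.30 and it is capped at 100. The deposited score is a whole number within 0.5 of 10 times that value and was not used. Read depth is unknown. There are no replicates, so no test was made.

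Analyses used Python 3.11.15 with pandas 2.3.3, NumPy 2.4.6 and SciPy 1.17.1. Overlap was at least 1 bp. Window ratios were centred on the log2 ratio over chromosomes 1 to 22 and X, with exact conditional binomial 95% intervals, and needed 20 hotspots. Shares have Wilson 95% intervals. Genes were the 19866 protein-coding genes of a RefSeq table on GRCh38.p14 (171 not placed on primary chromosomes were left out). Functions for overlap and windows were tested on simulated data. Genes and sites were named by rule. The 3 windows at each end of the ratio had up to 3 genes each, by largest difference in the window's own direction. Also named were the 5 strongest unshared sites and 5 single-line genes per line, the 5 strongest shared pairs and the 3 longest runs per line. Members of 7 gene lists were named as well, of which those with the larger differences and some near 0 are given. The members and lists were chosen with earlier results of these data known. The promoters shown and the genes named within the promoter classes were picked after their values were seen. A gene planned as a check of the labels is not reported here. The motif search planned for hotspots needed a genome and was made on promoters instead. Alternatives covered merging within 150 bp, the top 50% of each list, a −log10 minimum of 2, lists of equal length, a width of at least 200 bp, other windows and other distances.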

Additional observations from a re-analysis of the deposited data

How the results depend on the processing

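Of 113 recomputed summary values, 80 stayed within their interval or within 1.5 times the count and 33 moved. The top 50% of each list left 925 Saos-2 and 827 U2OS hotspots on 6p, and a width of at least 200 bp left 1125 in Saos-2. The overlapped share of Saos-2 was 50.7% in the top 50%, 48.8% with lists of equal length, 56.1% at 200 bp, 41.4% where 50% of both hotspots had to overlap and 47.3% without gene-end hotspots. That of U2OS was 62.3% with equal lists, 43.6% at 50% of both and 50.5% without gene-end hotspots. The gene-end share, 21.1% in Saos-2 and 21.6% in U2OS, was 25.2% and 25.3% in the top 50%, 24.8% and 23.9% at 200 bp, 25.4% and 26.2% within 2.5 kb, and 29.6% and 30.9% with all annotated genes. The centred ratio of 6p was -0.05 against the other arm and between -0.46 and -0.36 in the other settings run.

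Windows past 1.5-fold toward U2OS, 1 as reported, numbered 2 after merging, with equal lists and with windows shifted by 1 Mb, 3 at a −log10 of at least 2, 4 in the top 50% and in covered bases, and 5 at 200 bp and in windows of 1 Mb. Those toward Saos-2, 10 as reported, numbered 1 at 2-fold, 16 in windows of 1 Mb and 6 in windows of 4 Mb. With 50 kb around genes, 8 genes and 3 histone genes had hotspots in Saos-2 alone, with no share over all genes computed at that distance. Single genes that changed direction were DTNBP1, at 14 bp more in U2OS with gene ends only, and PRL, at 186 bp more in U2OS with 50 kb. Another 41 values of single genes, windows and counts moved, 13 of them gene differences at gene ends only. There U2OS minus Saos-2 was -140 bp at PRIM2, -195 bp at SUPT3H, -290 bp at CARMIL1, -674 bp at JARID2, 391 bp at PKHD1 and 862 bp at BMP6. In the top 50% it was -2 bp at SOX4, -486 bp at RUNX2 and 0 bp at HDGFL1, and 1 histone gene had hotspots in U2OS alone there and at 200 bp. For the changes in window counts and distances the construction of the setting differs, and otherwise the cause was not tested. The settings without the last window, without PRIM2 and with moved block borders were chosen after seeing the data. No paired analysis was possible because each line has 1 library, and leaving out a replicate was not possible for the same reason. The planned motif share of hotspots was not run. Unknown depth limits every comparison of counts between the lines.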

Other observations

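RefSeq places 31 microRNA hairpins on 6p. Hotspots of both lines overlapped 1 of them, MIR3143, which lies among the histone genes. Hotspots of Saos-2 alone overlapped 3, MIR4645, MIR219A1 and MIR4462, and hotspots of U2OS alone overlapped 3, MIR6834, MIR7111 and MIR10398. These counts are too small to compare the lines.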
